A study of Mus musculus with 12 samples.

Results

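Genes of alcohol, aldehyde and retinol oxidation were followed in primary mouse hepatocytes with and without the nuclear receptor gene Hnf4a. They were 4 alcohol dehydrogenases (Adh1, Adh4, Adh5 and Adh7), 4 aldehyde dehydrogenases (Aldh1a1, Aldh1a7, Aldh1b1 and Aldh2) and the retinol dehydrogenase Rdh16. Each was found in the count table by its Ensembl identifier and mouse symbol, giving 9 of the 55414 gene identifiers. All 9 had enough reads to be tested, among 14919 tested genes in all.

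Alcohol dehydrogenases are zinc enzymes of the cytosol that turn alcohols, ethanol and retinol among them, into aldehydes. Retinol is also oxidised by membrane-bound short-chain dehydrogenases, the family of Rdh16. Aldehyde dehydrogenases then turn aldehydes into acids: acetaldehyde becomes acetate, and retinaldehyde becomes retinoic acid, the ligand of the retinoic acid receptors. The liver is the main site of ethanol oxidation and the main store of vitamin A.

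By their labels the cells were either wild type (WT) or Hnf4a KO, and those of each genotype received vehicle or MJ041, a compound known here only by its code name. Each of the 4 groups (WT vehicle, WT MJ041, KO vehicle and KO MJ041) held 3 RNA-seq libraries of between 16740761 and 17902832 counts. HNF4A is the receptor that maintains hepatocyte gene expression. The labels give no dose or duration, no age or strain of the mice, and no account of how Hnf4a was deleted or in which cells. Nor do they say whether replicates came from different animals, and a p-value then speaks only of the spread among these samples, which may be technical.

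Hnf4a itself was at 121, 137 and 112 CPM (reads of a gene relative to the scaled total of its library) in the WT vehicle libraries and at 61.1, 67.8 and 66.4 CPM in the KO vehicle libraries. The libraries labelled KO were thus all lower, with a log2 fold change of -0.92 ± 0.10 (standard error, SE), but they still held Hnf4a reads. All 12 hepatocyte markers examined were detected. Their summed level was 57706 to 63538 CPM in WT vehicle and 27140 to 32064 CPM in KO vehicle libraries. Alb alone averaged 44806 CPM in WT vehicle and 18885 CPM in KO vehicle cells, so it made up most of both sums. As given further on, 7 of the 12 were lower in KO vehicle cells and 1 was higher. The summed level of 46 listed Kupffer, endothelial and stellate cell markers, 41 of them tested, was 685 to 1150 CPM in WT vehicle and 892 to 1147 CPM in KO vehicle libraries. In WT MJ041 libraries it was 464 to 863 CPM, and in KO MJ041 libraries 955 to 1072 CPM. Of these 46, the Kupffer cell marker Cd163 was at 0 in every group but KO vehicle. Of 12 listed cholangiocyte markers 8 were tested, with a sum of 404 to 619 CPM in WT vehicle and 551 to 714 CPM in KO vehicle libraries. In RNA from bulk cultures, fewer cells of a type and less RNA per cell cannot be told apart.

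Apart from Aldh1b1 and Aldh2, the members lie in 3 neighbourhoods of close relatives. The likeness of their sequences bears on how their reads can be counted. In the RefSeq order of genes on GRCm38.p6, Adh7, Adh1, Adh6a, Adh6b, Adh4 and Adh5 lie in this order. Coding sequences of any pair of the 4 Adh members were 63.4% to 69.1% identical. Rdh16 lies among Rdh1, Rdh9, Rdh19, Rdh16f2 and Rdh7, and its coding sequence was 96.7% identical to that of Rdh16f1 and 96.3% to that of Rdh9. Of all 50-base stretches of Rdh16 exons, 14.0% also occurred in another gene. Aldh1a1 and Aldh1a7 were 91.6% identical over 1503 aligned coding bases, against 65.2% to 70.2% for the other pairs of Aldh members. The share of 50-base stretches found elsewhere was 7.49% for Aldh1a7 and 3.06% for Aldh1a1, and at most 0.291% for the other 6 members. How the counting treated reads that match several places is not given in the sources used here, so the counts of Rdh16, Aldh1a7 and Aldh1a1 carry that uncertainty.

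Aldh1a1 and Aldh1a7 had unlike responses, described further on, and the 250 bases before their starts are shown because they share long runs near the start. The sequences are from RefSeq on GRCm38.p6, at chr19:20601718-20601967 on the plus strand for Aldh1a1 (the second of its listed starts) and chr19:20727557-20727806 on the minus strand for Aldh1a7. Capitals mark runs of at least 12 bases that both share in the same order.
Aldh1a1: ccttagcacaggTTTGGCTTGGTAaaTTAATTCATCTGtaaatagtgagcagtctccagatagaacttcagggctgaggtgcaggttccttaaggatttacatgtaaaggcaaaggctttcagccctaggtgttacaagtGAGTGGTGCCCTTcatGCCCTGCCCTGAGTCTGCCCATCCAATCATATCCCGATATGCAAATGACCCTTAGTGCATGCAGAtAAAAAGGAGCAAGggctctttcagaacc
Aldh1a7: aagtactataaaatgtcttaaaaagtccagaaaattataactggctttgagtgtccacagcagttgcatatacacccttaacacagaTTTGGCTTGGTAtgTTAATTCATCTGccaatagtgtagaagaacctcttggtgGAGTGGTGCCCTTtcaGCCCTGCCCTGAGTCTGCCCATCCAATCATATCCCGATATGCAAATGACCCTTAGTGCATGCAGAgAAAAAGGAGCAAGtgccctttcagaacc
The 5 shared runs held 115 bases, and the longest was 65 bases. In a separate pairwise alignment, 160 of the 175 aligned bases were identical, or 91.4%, and these 160 are 64.0% of the whole window. Before the first listed start of Aldh1a1 the likeness to Aldh1a7 was 55.2% of the window, within the 38.0% to 57.2% of the other pairs of member windows.

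Rdh16 and Adh4 were the members that passed the test as lower in KO cells with either treatment, and their upstream sequences are shown for that reason. They come from chr10:127800903-127801152 (plus strand) for Rdh16 and chr3:138415247-138415496 (plus strand) for Adh4, on the same build. Capitals mark CAAAG on either strand, the core of the motif that HNF4A is known to prefer.
Rdh16: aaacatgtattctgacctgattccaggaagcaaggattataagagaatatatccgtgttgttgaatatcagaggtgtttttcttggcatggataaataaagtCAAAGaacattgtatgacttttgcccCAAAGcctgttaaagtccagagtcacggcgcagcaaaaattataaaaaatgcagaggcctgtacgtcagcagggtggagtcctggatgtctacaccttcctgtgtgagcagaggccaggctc
Adh4: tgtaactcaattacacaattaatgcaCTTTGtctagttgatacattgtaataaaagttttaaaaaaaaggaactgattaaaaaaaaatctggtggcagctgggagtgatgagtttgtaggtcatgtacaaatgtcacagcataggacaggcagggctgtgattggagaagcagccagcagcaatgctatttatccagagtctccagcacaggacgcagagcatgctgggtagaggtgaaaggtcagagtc
Rdh16 held CAAAG at 148 and 122 bases before its start, and Adh4 held it at 224 bases on the minus strand. Of all members, 7 of the 8 with an entry held it in at least 1 window, among them Aldh1a1 with 5 matches before its first start and 1 before its second. Counted by window, it was absent from that of Adh1 and from the first of Adh5 among the members. It was present in 48.6% of 32851 promoter windows of this length. The longer HNF4 motif CAAAGTCCA, which contains CAAAG, matched exactly in 0.384% of those windows. It matched exactly in none of the 10 windows of the 8 members that had an entry. The Rdh16 window held TAAAGTCCA, and that of Aldh1a7, which was not called with vehicle, held AAAAGTCCA. Each of these differs from CAAAGTCCA by 1 letter. The nuclear receptor half-site AGGTCA, present in 14.0% of windows, occurred in Adh4 at 133 and 11 bases and in Rdh16 at 238 bases on the minus strand. TATAAA, present in 12.4% of windows, occurred 82 bases before the Rdh16 start. In the Adh4 sequence shown, AGGTGA and 1 further base precede the match at 11 bases. Only exact matches were searched, not near matches or pairs of half-sites. How often such near matches or pairs occur in other windows was not counted. These are matches of letters within a short window, and no binding was measured.

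Levels of different genes were compared as CPM per kilobase of each gene's principal transcript, since longer transcripts give more reads. In WT vehicle cells Aldh2, the mitochondrial enzyme that clears acetaldehyde, was highest at 138 ± 6.70 (SD, n = 3). Aldh1a1, a cytosolic enzyme that oxidises retinaldehyde, stood at 89.0 ± 16.4, and Adh5, the glutathione-dependent formaldehyde dehydrogenase, at 82.9 ± 4.37. These neighbours did not differ beyond their spread. Adh1, the main ethanol dehydrogenase of the liver, followed at 60.3 ± 12.1 and Aldh1a7 at 28.7 ± 2.94. Lower levels were those of the mitochondrial Aldh1b1 (8.60 ± 0.69), of Adh4 (5.52 ± 0.78) and of Rdh16 (2.12 ± 0.15). Adh7, an alcohol dehydrogenase known from the stomach and other epithelia, was lowest at 0.194 ± 0.014.

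In KO vehicle cells the order at both ends was different. Aldh1a1 stood highest, at 377 ± 28.2 CPM per kilobase, above Aldh2 at 136 ± 3.32. Adh5 (85.1 ± 2.75), Adh1 (75.4 ± 8.48), Aldh1a7 (33.4 ± 3.59), Aldh1b1 (6.98 ± 0.89) and Adh4 (3.27 ± 0.18) kept the middle places in the same order. Adh7 (0.322 ± 0.163) now stood above Rdh16 (0.0233 ± 0.0265). These orders depend on which transcript length is used. When the full length of all exons was taken instead, a setting chosen after seeing the data, Adh5 in WT vehicle cells came to 24.6 and lay below Adh1 (40.3) and Aldh1a7 (28.7).

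**Figure D1:**
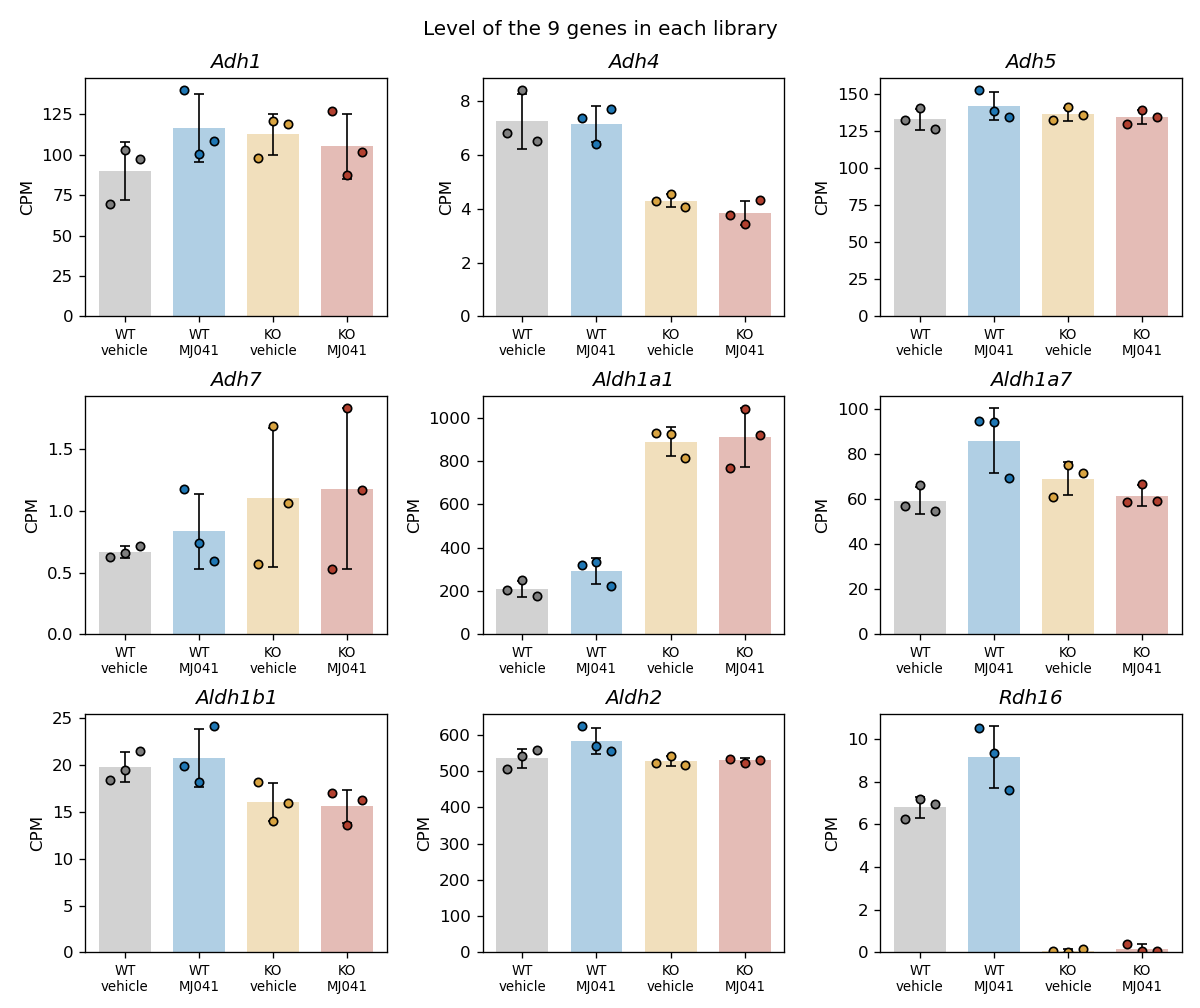
Level of each gene in CPM (linear axis from 0) in the 4 groups; circles are the 3 libraries in replicate order from left to right, bars are means and whiskers the SD. Aldh1a1 lies between 175 and 336 CPM in WT and between 766 and 1039 CPM in KO libraries, and Rdh16 is at or near 0 in all 6 KO libraries.

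The first comparison asked which of these genes differ when cells labelled KO are set against WT cells, both with vehicle. Aldh1a1 rose about 4-fold, Rdh16 was nearly lost and Adh4 fell by 0.75 on the log2 scale, while the other 6 genes did not pass the test. Thus 1 of 9 members was higher and 2 were lower, where 27.5% of all tested genes were called higher and 26.9% lower. The median log2 fold change of the 9 was 0.04, and that of all tested genes -0.0020. These calls are Benjamini-Hochberg adjusted p-values below 0.05 in edgeR's two-sided quasi-likelihood test.

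Among the alcohol dehydrogenases, Adh4, the class II enzyme that also handles retinol, was at 6.82, 8.42 and 6.52 CPM in WT vehicle libraries. In KO vehicle libraries it was at 4.28, 4.53 and 4.07 CPM. Every KO library lay below every WT library, and the log2 fold change was -0.75 ± 0.15 (SE, edgeR adjusted p = 0.00091). Behind these levels stood 379 reads over the WT group and 226 over the KO group.

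Adh1 was at 69.4, 103 and 97.4 CPM in WT vehicle and at 97.9, 121 and 119 CPM in KO vehicle libraries. The groups overlapped, and the log2 fold change of 0.32 had a 95% interval from -0.04 to 0.69 (edgeR adjusted p = 0.12). Adh5 ranged from 126 to 140 CPM in WT vehicle and from 132 to 141 CPM in KO vehicle libraries. The groups overlapped, with a log2 fold change of 0.04 and an interval from -0.09 to 0.17. Its interval leaves room for only a small change in either direction.

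Adh7 was at 0.625, 0.657 and 0.718 CPM in WT vehicle libraries, from 35 reads in all. In KO vehicle libraries it was at 0.571, 1.69 and 1.06 CPM, and in KO MJ041 libraries at 0.530, 1.83 and 1.17 CPM. Replicate 1 of both KO groups was thus at the WT vehicle level or below it, and the other KO libraries were above. The log2 fold change with vehicle was 0.72 ± 0.47, with an interval from -0.30 to 1.74, so a difference was not detectable at this depth. With the level of Kupffer, endothelial and stellate cell markers as a covariate it was 0.71 (edgeR adjusted p = 0.23).

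Among the aldehyde dehydrogenases, Aldh1a1 was at 203, 251 and 175 CPM in WT vehicle and at 928, 925 and 812 CPM in KO vehicle libraries. The lowest KO library was more than 3 times the highest WT library. The log2 fold change was 2.08 ± 0.17, or 4.23-fold (edgeR adjusted p = 5.8e-07). In a fit with the level of non-hepatocyte markers as a covariate it was 2.14.

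Aldh1a7, a rodent gene close to Aldh1a1 in sequence, did not pass the test. It was at 56.9, 66.1 and 54.6 CPM in WT vehicle and at 60.7, 74.9 and 71.4 CPM in KO vehicle libraries, which overlap. Its log2 fold change was 0.22 with an interval from -0.04 to 0.48. The interval of Aldh1a1 was 1.72 to 2.45. The ratio of Aldh1a1 to Aldh1a7, per kilobase, was 2.81 to 3.33 in WT vehicle libraries and 2.81 to 3.12 in WT MJ041 libraries. It was 9.96 to 13.4 in KO vehicle and 11.5 to 13.6 in KO MJ041 libraries, so the ranges of the genotypes were far apart.

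Aldh2 was at 506, 540 and 557 CPM in WT vehicle and at 523, 542 and 517 CPM in KO vehicle libraries. Its log2 fold change was -0.02 with an interval from -0.15 to 0.11, so any change was small. Aldh1b1, which also acts on acetaldehyde in mitochondria, was at 18.4, 19.5 and 21.5 CPM in WT vehicle and at 18.2, 14.1 and 15.9 CPM in KO vehicle libraries. Its groups did not overlap, but the log2 fold change of -0.30 ± 0.13 missed the threshold (edgeR adjusted p = 0.064). That call was close to the threshold and passed it in 9 of 21 alternative settings.

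The balance among the 4 aldehyde dehydrogenases was therefore different in the genotypes. Their summed level was 265 ± 19.3 CPM per kilobase in WT vehicle and 553 ± 29.8 in KO vehicle cells. Aldh1a1 made up 33.5% ± 4.03 of that sum in WT vehicle cells and 68.0% ± 1.64 in KO vehicle cells, while the share of Aldh2 was 52.4% ± 4.04 and 24.7% ± 0.96. With the length of all exons the Aldh1a1 shares were 23.0% and 55.6%. The summed level of the 4 alcohol dehydrogenases was 149 ± 14.4 in WT vehicle and 164 ± 11.1 in KO vehicle cells, and these ranges overlapped.

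**Figure D2:**
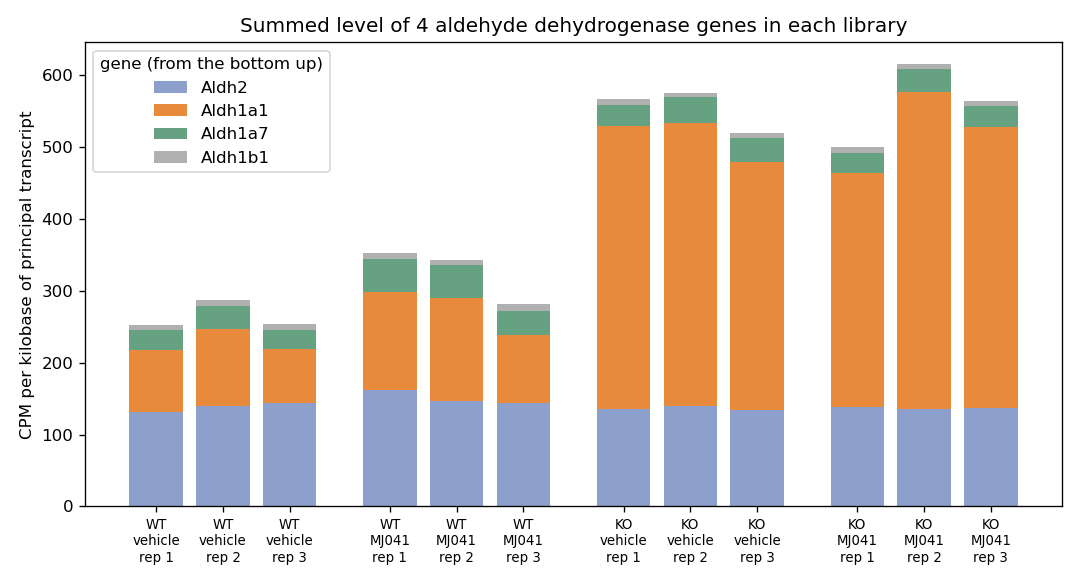
Summed level of Aldh2, Aldh1a1, Aldh1a7 and Aldh1b1 in each of the 12 libraries, stacked from the bottom up, in CPM per kilobase of principal transcript (axis from 0). The Aldh2 segment is of similar height throughout, and the Aldh1a1 segment is taller in each KO library than in any WT library.

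Rdh16, a microsomal retinol dehydrogenase that also acts on steroids, was the member with the largest difference. It had 110, 120 and 126 reads in the WT vehicle libraries, or 6.25, 7.16 and 6.96 CPM. In the KO vehicle libraries it had 1, 0 and 3 reads. The level over the group was 89.3 times higher in WT than in KO cells, with an exact 95% interval from 34.6 to 330 that covers counting error only (edgeR adjusted p = 4.3e-07). A fitted log2 fold change at such low counts depends on the prior count and is not given. Of the 4 KO reads 3 came from replicate 3, and without that library, a setting added after seeing the data, the ratio was 236 with an interval from 42.0 to 9331.

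The retinol dehydrogenase neighbours of Rdh16 that were tested, Rdh9, Rdh16f2 and Rdh7, were also lower in KO cells. Rdh9, its near copy, had 59 reads over the WT vehicle libraries and 2 over the KO vehicle libraries. How reads that match both Rdh9 and Rdh16 were counted is not given. Rdh16f2 was at 56.8 CPM in WT vehicle and 0.590 CPM in KO vehicle cells, a log2 fold change of -6.57 ± 0.22. Rdh7, another retinol dehydrogenase of the cluster, fell by 1.83. Rdh1 had 7 and 5 reads over the same groups and was not tested, and Rdh16f1 and Rdh19 had 0 reads in both.

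In the same comparison 7 of 12 hepatocyte markers were lower and 1 was higher, and 5 of 8 tested cholangiocyte markers were higher and 1 was lower. Their part in the differences of Aldh1a1, Adh4 and Rdh16 was not tested. Kupffer, endothelial and stellate content was examined through a covariate. With it the log2 fold changes of Adh4 and Aldh1a1 were -0.75 and 2.14, and both were called, as was Rdh16.

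The next comparison set KO against WT cells when both had received MJ041. Aldh1a1 was again higher, and Adh4, Aldh1a7, Aldh1b1 and Rdh16 were lower. That is 1 of 9 members higher and 4 lower, where 26.8% of all tested genes were called higher and 27.6% lower. The median log2 fold change of the 9 was -0.14, beside 0.02 for all genes.

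Aldh1a1 was at 321, 336 and 221 CPM in WT MJ041 and at 766, 1039 and 920 CPM in KO MJ041 libraries, which do not overlap. Its log2 fold change was 1.64 ± 0.17 (edgeR adjusted p = 3.6e-06). Rdh16 had 170, 152 and 129 reads in WT MJ041 libraries against 7, 1 and 1 in KO MJ041 libraries, a ratio of 52.4 with an interval from 27.3 to 115. Of the 9 KO reads 7 came from 1 library, so the KO level rests largely on that library, KO MJ041 replicate 1. Without it the ratio was 158 with an interval from 43.5 to 1309. Adh4 was at 7.35, 6.40 and 7.69 CPM in WT MJ041 and at 3.77, 3.43 and 4.33 CPM in KO MJ041 libraries. Its log2 fold change was -0.90 ± 0.15 (edgeR adjusted p = 0.00027).

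Aldh1a7 was at 94.4, 94.2 and 69.1 CPM in WT MJ041 and at 58.6, 66.7 and 59.3 CPM in KO MJ041 libraries. Its log2 fold change was -0.48 ± 0.12 (edgeR adjusted p = 0.0044). The call was lost with the marker covariate (-0.28, adjusted p = 0.11), and also without WT MJ041 replicates 1 and 2 (-0.17, adjusted p = 0.33). Aldh1b1 was at 19.8, 18.2 and 24.2 CPM in WT MJ041 and at 17.0, 13.6 and 16.2 CPM in KO MJ041 libraries, a log2 fold change of -0.41 ± 0.13 (edgeR adjusted p = 0.016). This call was lost without WT MJ041 replicate 3 (-0.29, adjusted p = 0.073), without KO MJ041 replicate 2 (-0.34, adjusted p = 0.061) and with upper-quartile scaling (-0.32, adjusted p = 0.061).

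Aldh2 was at 625, 568 and 556 CPM in WT MJ041 and at 533, 523 and 531 CPM in KO MJ041 libraries. The groups did not overlap, and the small log2 fold change of -0.14 ± 0.06 missed the threshold (edgeR adjusted p = 0.057), though it passed in 10 of 21 alternative settings. Adh1 (-0.14), Adh5 (-0.08) and Adh7 (0.50) did not pass. This comparison and the previous one use different libraries but share 1 fit, and the labels do not say whether the animals differ. Both comparisons show the 3 members that differed with vehicle on the same side. Upper-quartile scaling moved the median of all genes to 0.11 here, and the share of calls that were higher from 49.3% to 59.8%.

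**Figure D3:**
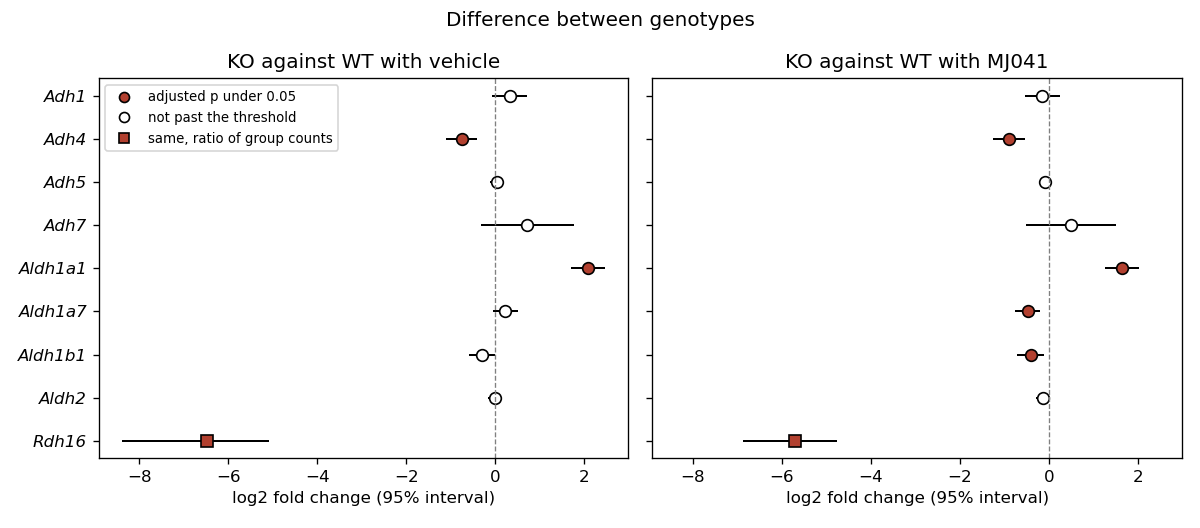
Log2 fold change of each gene between KO and WT cells with vehicle (left) and with MJ041 (right); lines are 95% intervals from the edgeR fit, filled symbols passed an adjusted p of 0.05, and the squares of Rdh16 show the log2 ratio of group counts with its exact interval. Aldh1a1 lies at 2.08 on the left and 1.64 on the right, and Rdh16 lies far below 0 in both panels, with the widest interval.

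MJ041 was then compared with vehicle within each genotype. In WT cells 1 of 9 members, Aldh1a7, was higher and 0 were lower, where 1.19% of all tested genes were called higher and 1.02% lower. Aldh1a7 went from 56.9, 66.1 and 54.6 CPM with vehicle to 94.4, 94.2 and 69.1 CPM with MJ041. All 3 treated libraries lay above the vehicle libraries, and the third only just so. The log2 fold change was 0.54 ± 0.12, or 1.45-fold (edgeR adjusted p = 0.043).

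This call did not survive many other settings. It was lost in 13 of 21, where the log2 fold change ranged from 0.23 to 0.67 over all 21. Without WT MJ041 replicate 1 it was 0.46 (adjusted p = 0.14), and without replicate 2 of that group 0.44 (adjusted p = 0.22). Without WT vehicle replicates 1 or 3 it was 0.51 (adjusted p = 0.20) and 0.46 (adjusted p = 0.15). Leaving out any 1 of the 6 KO libraries also ended the call, with adjusted p between 0.054 and 0.084.

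The 2 WT MJ041 libraries with the most Aldh1a7 also had the fewest markers of other liver cells. The mean log2 CPM of stellate cell markers was 1.38, 1.52 and 2.42 in WT MJ041 replicates 1 to 3, against 2.29, 2.43 and 2.24 with vehicle. The same mean for Kupffer cell markers was 1.41, 2.48 and 3.77 with MJ041 and 3.10, 2.68 and 4.10 with vehicle. For endothelial markers it was 2.32, 2.54 and 3.37 with MJ041 and 3.25, 2.88 and 3.91 with vehicle. With these markers as a covariate the Aldh1a7 log2 fold change was 0.39 (edgeR adjusted p = 0.17). Without replicates 1 and 2, which leaves 1 treated library that is assumed to vary like the rest, it was 0.23 (edgeR adjusted p = 0.997).

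Aldh1a1 was also highest in WT MJ041 replicates 1 and 2 among the WT libraries but did not pass. It was at 203, 251 and 175 CPM with vehicle and at 321, 336 and 221 CPM with MJ041, so the third treated library lay within the vehicle range. Its log2 fold change was 0.48 ± 0.16 (edgeR adjusted p = 0.12), and 0.08 without WT MJ041 replicates 1 and 2. Without WT MJ041 replicate 3 alone it was 0.64 and passed (adjusted p = 0.012). It passed in 4 of 21 alternative settings, DESeq2 among them (0.47, adjusted p = 0.046).

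Rdh16 was at 10.5, 9.36 and 7.63 CPM with MJ041 against 6.25, 7.16 and 6.96 CPM with vehicle. These groups did not overlap either, but the log2 fold change of 0.43 ± 0.27 missed the threshold (edgeR adjusted p = 0.39). Adh1 was at 140, 101 and 109 CPM with MJ041, and its log2 fold change of 0.37 had an interval from 0.01 to 0.74 (adjusted p = 0.23). For Aldh2 the value was 0.12, for Adh5 0.09, for Aldh1b1 0.07 and for Adh4 -0.02. Adh7, at 1.17, 0.739 and 0.591 CPM, had 0.32 with an interval from -0.76 to 1.39. Hnf4a was at 162 ± 18.6 CPM with MJ041 and 124 ± 12.6 with vehicle, and did not pass (log2 fold change 0.39, edgeR adjusted p = 0.062).

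In KO cells 0 of 9 members passed, and 0% of all tested genes were called. At an unadjusted p below 0.05 edgeR gave 414 genes, where 746 would fall there if no gene differed, and DESeq2 called 1. Aldh1a1 had a log2 fold change of 0.03 with an interval from -0.32 to 0.38, and Aldh1a7 one of -0.16 with an interval from -0.43 to 0.10. For Aldh2 the value was 0.0044 (interval -0.12 to 0.13) and for Adh5 -0.02 (interval -0.15 to 0.11), so changes larger than these bounds are outside the intervals. Adh1, at 127, 87.4 and 102 CPM with MJ041 against 97.9, 121 and 119 CPM with vehicle, had -0.10. Adh4 had -0.16, Aldh1b1 -0.04 and Adh7 0.10. Rdh16 had 9 reads with MJ041 and 4 with vehicle, too few to show a difference.

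Whether the response to MJ041 differed between genotypes was tested by the interaction, the response in KO minus that in WT cells. No member passed, and 0% of all tested genes were called. At an unadjusted p below 0.05 edgeR gave 1980 genes, beside the same 746, and DESeq2 called 211. Aldh1a7 came nearest, with -0.70 ± 0.17 (edgeR adjusted p = 0.14, range 6.0e-06 to 0.91 over 20 alternatives). DESeq2 called it (-0.70, adjusted p = 0.014), as did edgeR without WT MJ041 replicate 3 (-0.84, adjusted p = 0.0091). With the marker covariate it was -0.53 (adjusted p = 0.28). Adh1 (-0.47), Aldh1a1 (-0.45) and the other 6 members did not pass, so their responses were not shown to differ between genotypes.

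**Figure D4:**
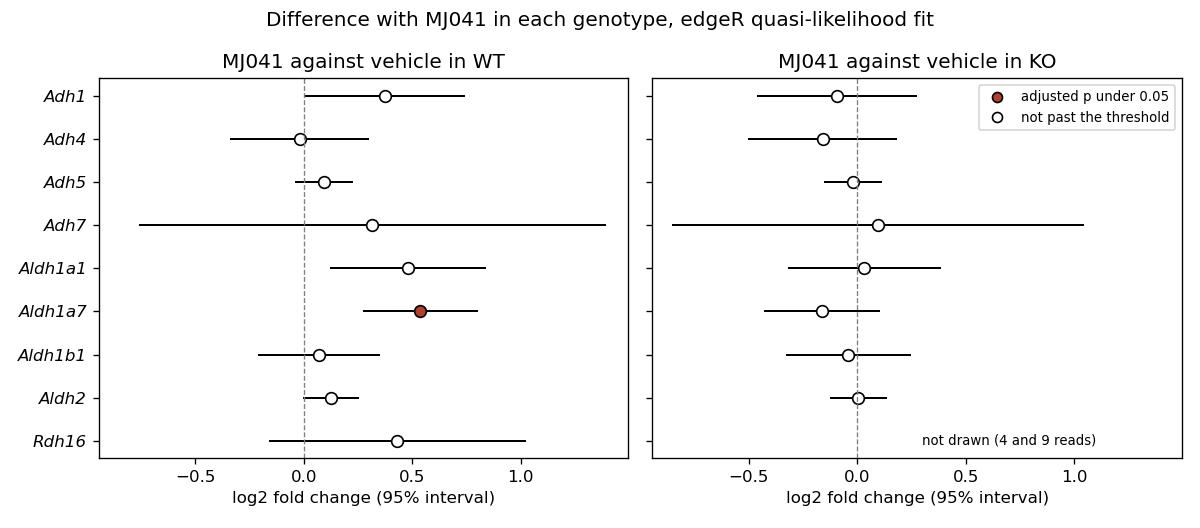
Log2 fold change of each gene between MJ041 and vehicle in WT (left) and KO cells (right); lines are 95% intervals from the edgeR fit and the filled circle passed an adjusted p of 0.05. Of all values drawn, Aldh1a7 in WT cells (0.54) alone passed, and Rdh16 in KO cells, with 4 and 9 reads, is not drawn.

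The other genes of these pathways were read from 2 lists. Of 28 other genes of alcohol and aldehyde oxidation 21 were tested, and in KO against WT with vehicle 8 were higher and 6 lower, with a median log2 fold change of 0.06. Over all tested genes 27.5% were higher and 26.9% lower, with a median of -0.0020. Aldh1l2, the mitochondrial 10-formyltetrahydrofolate dehydrogenase, rose by 3.00, and its cytosolic counterpart Aldh1l1 fell by 0.92. The fatty aldehyde dehydrogenase Aldh3a2 (0.96), the succinic semialdehyde dehydrogenase Aldh5a1 (0.92) and Acss2, which makes acetyl-CoA from acetate (0.84), rose. Cyp2e1, the ethanol-inducible cytochrome P450 that oxidises ethanol, had 287 CPM in WT vehicle and 52.8 CPM in KO vehicle cells and changed by -2.44 ± 0.15 on the log2 scale. Aldh8a1, an enzyme of tryptophan breakdown, fell by 3.71, and sorbitol dehydrogenase (Sord) fell by 1.10. Adh6a and Adh6b, the neighbours of Adh1, had 0 and 1 reads in WT vehicle and 0 and 12 in KO vehicle libraries and were not tested.

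Of 43 other retinoid genes 29 were tested, and 12 were higher and 15 lower, with a median of -0.28, beside the same 27.5% and 26.9% of all tested genes. One of these, Ttr, is also among the hepatocyte markers, and Lrat, which was not tested, is also a stellate cell marker. Plasma transport genes were lower: Ttr, the transthyretin that carries retinol-binding protein, changed by -1.86 and Rbp4, that binding protein, by -0.58. Besides the Rdh16 neighbours, Rdh10 (-1.29) and Rdh11 (-0.90) fell. These 2 genes, like Rbp4 and Rara here, were named after their values were seen. The retinaldehyde reductase Dhrs3 rose by 1.37, the carboxylesterase Ces1d, which can cleave retinyl esters, by 2.09, and the retinoic acid receptors Rarb and Rarg by 1.43 and 1.33. The third receptor gene, Rara, changed by -0.28.

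With MJ041 in both genotypes, 6 alcohol and aldehyde genes were higher and 10 lower in KO cells (median -0.21), and 9 retinoid genes were higher and 16 lower (median -0.39). Over all tested genes 26.8% were higher and 27.6% lower, with a median of 0.02. The largest rises were Aldh1l2 (2.51), Aldh3a2 (0.79), Aldh5a1 (0.71) and Aldh3b1 (0.64) in the first list and Dhrs3 (2.19), Rarb (1.64), Ces1d (1.58) and the retinoic acid hydroxylase Cyp26a1 (1.07) in the second. Among the largest falls were Aldh8a1 (-3.98), Cyp2e1 (-2.77), Sord (-1.51) and Aldh1l1 (-1.35), and Rdh16f2 (-6.99), Rdh7 (-2.11) and Ttr (-2.03). For MJ041 against vehicle, in WT or in KO cells, and for the interaction, 0 genes of either list passed in the edgeR fit. The log2 fold changes of the most abundant of them with MJ041 in WT cells were 0.16 (Esd, which hydrolyses S-formylglutathione), 0.38 (catalase, Cat), 0.18 (Ttr) and 0.13 (Rbp4). In KO cells they were -0.04 for Esd, -0.05 for Cat, 0.02 for Ttr and -0.04 for Rbp4. The interaction was -0.21 for Esd, -0.44 for Cat, -0.16 for Ttr and -0.17 for Rbp4.

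**Figure D5:**
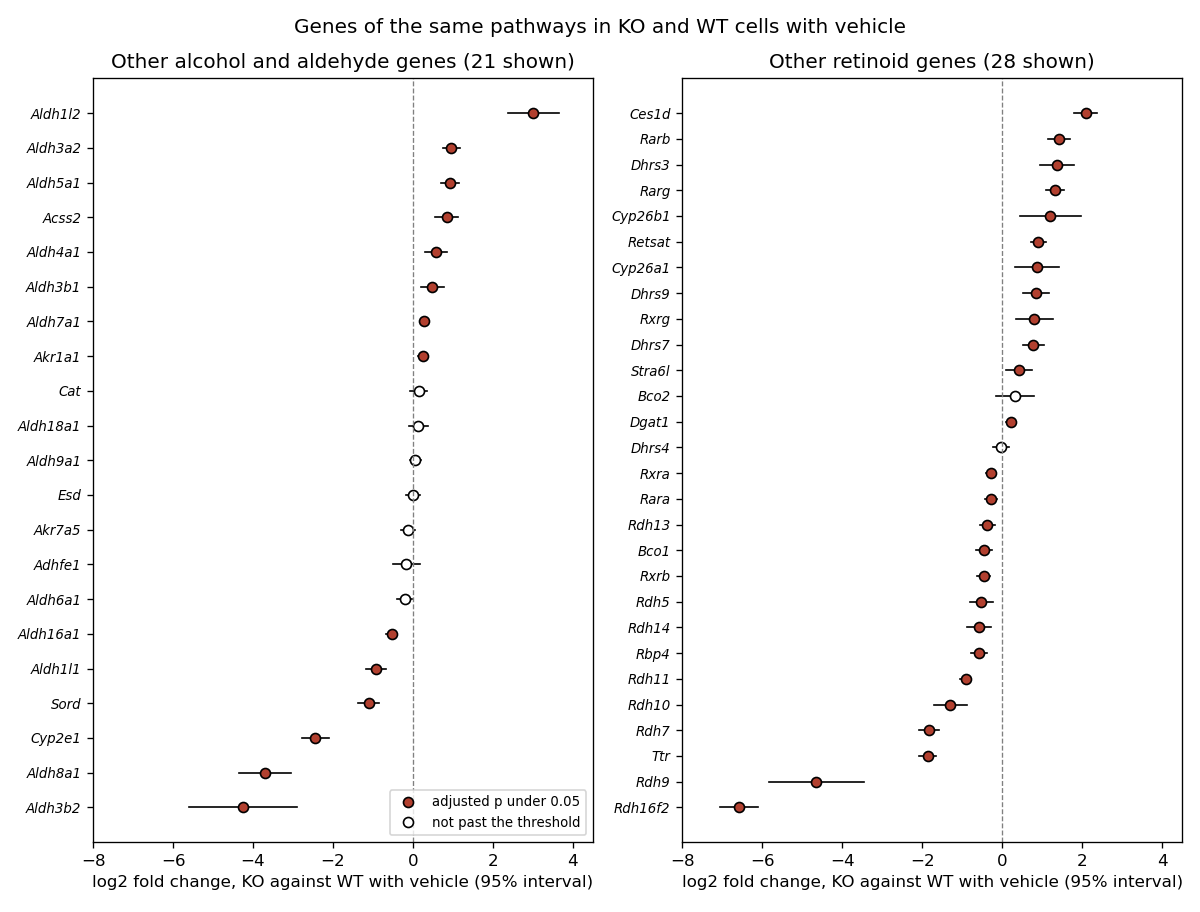
Log2 fold change between KO and WT cells with vehicle for the 21 other alcohol and aldehyde genes (left) and 28 of the 29 other retinoid genes (right) that were tested, ordered by value; lines are 95% intervals and filled circles passed an adjusted p of 0.05. Rises reach 3.00 (Aldh1l2) and 2.09 (Ces1d), and Rdh16f2 lies lowest at -6.57.

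For each member the 2 genes with the most similar pattern were sought by Pearson's r of log2 CPM over the 12 libraries, among the 10161 genes that averaged 5 CPM or more. These values describe the libraries, which share depth and fall into 2 genotypes. They are the 2 highest per member among all those genes, over only 12 libraries. How high r would come by such picking alone was not tested. For Aldh1a1 the nearest genes were Cbr3 (0.996) and Gtf3a (0.994), for Rdh16 Sult2a1 (0.995) and Slc22a27 (0.995), and for Adh4 Nufip1 (0.98) and Swap70 (0.98). These 3 members differed between genotypes with either treatment, so their r rests mainly on that difference. Aldh1a7 and Aldh1b1 were called between genotypes with MJ041 only, and how far their r rests on genotype was not tested. For Aldh1a7 the nearest were Scd1 (0.96) and Pgrmc1 (0.95), and for Aldh1b1 Tsr3 (0.94) and Cyp4f17 (0.94). Adh7, with only 9 to 32 reads in a library, was most like Slc20a2 (0.93) and Ndufb10 (0.93). Aldh2 was most like Pcx (0.92) and Elovl2 (0.91), Adh1 like Fam162a (0.90) and Egln3 (0.90), and Adh5 like Hsd11b1 (0.90) and Stk10 (0.89).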

How the data were processed

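RNA-seq of 12 libraries of primary mouse hepatocytes was analysed from 1 table. The authors deposited raw counts of reads per Ensembl gene without normalization. Per the labels' protocols, RNA came from a column kit, libraries from a stranded kit, and reads from an Element AVITI instrument. Per the submitters' processing notes, FastQC, Trimmomatic 0.34, STAR 2.7.10b, featureCounts, DESeq2 and mm39 were used; strand and multimapping settings are not given in the sources used here. Library totals ran from 16740761 to 17902832 counts. All columns matched a sample, no row lacked an identifier, and 52081 of 55414 identifiers had a symbol.

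Genes were kept by filterByExpr (minimum count 10), scaled by TMM and fitted with 1 coefficient per group over all 12 libraries by edgeR 4.0.16 (R 4.3.3), quasi-likelihood test, two-sided. P-values were adjusted by Benjamini-Hochberg over the 14919 genes tested, with a threshold of 0.05. The SE is the absolute log2 fold change over the square root of F. CPM used TMM-scaled totals. The ratio of group counts for Rdh16 has an exact 95% interval. Transcript lengths and coding sequences came from GENCODE vM21 and promoters and gene order from RefSeq GRCm38.p6, another build than the counts', so no coordinates of the counts are given. The fit was also run on simulated counts in which few genes changed, unlike the genotype comparisons here. That run therefore does not check the scaling or the calls between genotypes.

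The members and lists were chosen with earlier results of these data known. All members are named. Each comparison names, per list, up to 4 largest rises and 4 largest falls with adjusted p under 0.05 whose higher group averaged 5 CPM or more, or else the 2 most abundant genes. Rdh1, Rdh9, Rdh10, Rdh11, Rdh16f1, Rdh19, Adh6a, Adh6b, Lrat, Rara and, between genotypes, Rbp4 were named besides this rule after their values were seen. A gene that the rule takes is not reported here. Alternatives were DESeq2 1.42.0, limma 3.58.1 voom, other scalings, no filter, each library left out, a replicate block and a covariate of 41 markers of non-hepatocyte cells.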

Additional observations from a re-analysis of the deposited data

How the results depend on the processing

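Aldh1a1, Adh4 and Rdh16 kept direction and call in both genotype comparisons under all 21 alternatives. In KO against WT with vehicle, 3 members were called, and 5 without the low-count filter. Aldh1b1 was called besides those 3 in 9 of the 21 alternatives.

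The response to MJ041 in WT cells changed most. Called were 1 member and 329 genes in all, against 2 and 894 with DESeq2, and 3 and 1667 without the filter. Both counts were 0 with the marker covariate, with only the groups of the comparison in the fit, and without both WT MJ041 libraries low in stellate markers. Leaving out 1 library at a time gave 0 to 2 members and 0 to 2059 genes, the highest without WT MJ041 replicate 3. Upper-quartile scaling moved the share of these calls that were higher from 53.8% to 38.0%. For MJ041 in KO cells, 0 genes became 1 with DESeq2 and 15 without the filter. For the interaction, 0 members became 1 with DESeq2 and 3 without the filter, and 0 to 1 with 1 library left out. Over all genes, 0 became 211, 886 and 0 to 852 in the same settings. The cause was not tested.

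With the replicate block, 2 members (Aldh1a7 and Aldh1a1) and 649 genes were called for MJ041 in WT cells. Deviations of libraries with the same number correlated between -0.10 and 0.50 over 18 pairs, and those with other numbers between -0.53 and 0.45. Vehicle and MJ041 libraries of the same genotype and number correlated at 0.35, 0.46 and 0.04 in KO and at -0.01, 0.20 and 0.50 in WT cells. With other numbers the range was -0.44 to 0.11 in KO and -0.53 to 0.45 in WT cells. The main fit does not pair the samples by number, and a pairing within each genotype was not tested. Outside the MJ041 response in WT cells, the block changed 1 call among members, Aldh1b1 in KO against WT with vehicle (adjusted p = 0.029).

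As few as 4 reads over a group for Rdh16 and 35 for Adh7 limit what a difference can show.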
